A study of Mus musculus with 6 samples.

Results

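The genes of cholesterol synthesis, uptake and efflux were examined in mouse marrow stromal cells that lacked Nlrp3 and in wild-type cells. The set holds 31 genes, chosen by name for their place in the pathway with earlier results of these data known, and all 31 were matched by symbol among the 55401 genes of the deposited table. The study cultured mesenchymal stromal cells (MSCs), plastic-adherent progenitors of connective tissue, from the femurs of C57/B6J mice and sequenced their polyadenylated RNA. The groups were NLRP3-/- MSCs with lipopolysaccharide (LPS), 3 libraries, and WT MSCs with LPS, 3 libraries. Both groups received 3 µg/mL LPS, a bacterial outer membrane component sensed by TLR4, for 24 h, so that the comparison addresses the genotype under LPS and not the response to LPS. The labels give neither the age of the mice nor the knockout allele. Nor do they tie the libraries to separate animals or cultures, so a p-value reflects the spread among these libraries and that spread may be technical.

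Cells make cholesterol from acetyl-CoA through mevalonate, isoprenoid units and squalene, which is closed into the first sterol and then trimmed and reduced. When sterol in the endoplasmic reticulum membrane is scarce, the escort protein SCAP carries the membrane-bound factor SREBP2 to the Golgi, where it is cleaved and released to switch on the synthesis enzymes and lipoprotein uptake, and INSIG proteins hold the complex back when sterol is plentiful. When oxidized sterols accumulate, the liver X receptors (LXRs) switch on the export pumps ABCA1 and ABCG1 and the ubiquitin ligase MYLIP, which sends lipoprotein receptors to degradation. In macrophages LPS is known to bear on both arms.

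The targeted gene and the cell markers were checked before the sterol genes. Estimated counts of Nlrp3 were 0 in every knockout library and 730, 502 and 444 in WT replicates 1, 2 and 3 (limma adjusted p = 0.000408; exact two-sided permutation test p = 0.1, the smallest that 3 libraries against 3 allow). Knockout libraries held 58.4 to 63.5 M estimated counts and WT libraries 53.2 to 66.3 M (M, counts in units of 1e6), at about 4 counts per fragment. RNA of macrophage markers was found beside that of stromal markers in both groups, and which cells held it was not tested. Of 20 macrophage markers, 17 passed the expression filter and all 17 were higher in knockout libraries. Over all genes tested, 10.4% were called higher in knockout libraries and 9.20% lower (limma, adjusted p under 0.05). The 20 macrophage markers summed to 1729.9 to 1971 FPKM in knockout libraries and 737 to 839 FPKM in WT libraries. FPKM are fragments scaled by transcript length and by library size. The 3 that did not pass the filter were scarce in both groups. Ptprc, which encodes CD45, averaged 0.84 FPKM in knockout and 0.30 FPKM in WT libraries. Mrc1 averaged 0.76 and 0.68 FPKM, with overlap, and Cd163 0.14 and 0.03 FPKM. Adgre1, which encodes F4/80, averaged 134 ± 2.78 FPKM in knockout and 44.0 ± 2.71 FPKM in WT libraries (SD, n = 3 each), and Csf1r and Marco were likewise higher in every knockout library. Of 16 stromal markers, 15 were tested, of which 12 fell and 3 rose (Twist1, Nt5e and Cxcl12, named after their values were seen; Nt5e reached the filter in knockout libraries only, and Cxcl12 lost its call in 12 of 15 alternatives), with a summed level of 2261 to 2487 FPKM in knockout and 3391 to 3745 FPKM in WT libraries. Pdgfra averaged 2.96 FPKM in knockout and 30.2 FPKM in WT libraries, and Thy1 averaged 11.8 FPKM in knockout and 134 FPKM in WT libraries. Both remained detected in every library. In such bulk samples fewer cells of a type and less RNA per cell cannot be told apart, and the part of these markers in the sterol results below was not tested. The fat cell markers Adipoq, Plin1 and Cidec were at 0 in all 6 libraries, and the summed level of the 7 adipocyte markers was at most 2.31 FPKM. The 8 granulocyte markers summed to 12.7 to 15.0 FPKM in knockout and 2.88 to 3.71 FPKM in WT libraries. Elane and Ngp were at 0 in all 6 libraries, S100a9, Ly6g and Mpo did not exceed 0.31 FPKM, and of the other 3, named after their values were seen, S100a8 reached the filter in knockout libraries only, Mmp8 in 3 knockout libraries and 1 WT library, and Csf3r in all. None of the lymphoid, erythroid and endothelial markers reached the filter. Of 8 cell cycle markers, 0 passed in limma, edgeR or DESeq2, and 0 had an unadjusted p under 0.05 in limma.

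Synthesis genes were lower in the knockout cultures along most of the pathway, while the genes of the efflux arm did not move together. A gene was tested where 3 or more of the 6 libraries had an FPKM of 1 or more, which held for 30 of the 31 and not for Abcg1. By limma on log2(FPKM + 1), with Benjamini-Hochberg adjustment over all 12136 genes tested and a threshold of 0.05, 17 of the 30 fell. Over all genes tested, 9.20% were called lower and 10.4% higher, 19.6% in either direction. By the same test 0 of the 30 were called higher; the count was 1 (Ebp) at an unadjusted p under 0.05, and 0 in edgeR, where 8.48% of all genes were called higher, and in DESeq2. The 3 knockout libraries all lay below the 3 WT libraries for 21 of the 30, against 18.0% of all genes tested. The median log2 fold change of the 30 was -0.45, against 0.005 over all genes tested, and 26 of the 30 were below 0, against 49.2% of all. All fold changes are differences of mean log2(FPKM + 1), knockout minus WT, with the standard error (SE) after the ± sign; on this scale the change of scarce genes is understated.

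**Figure D1:**
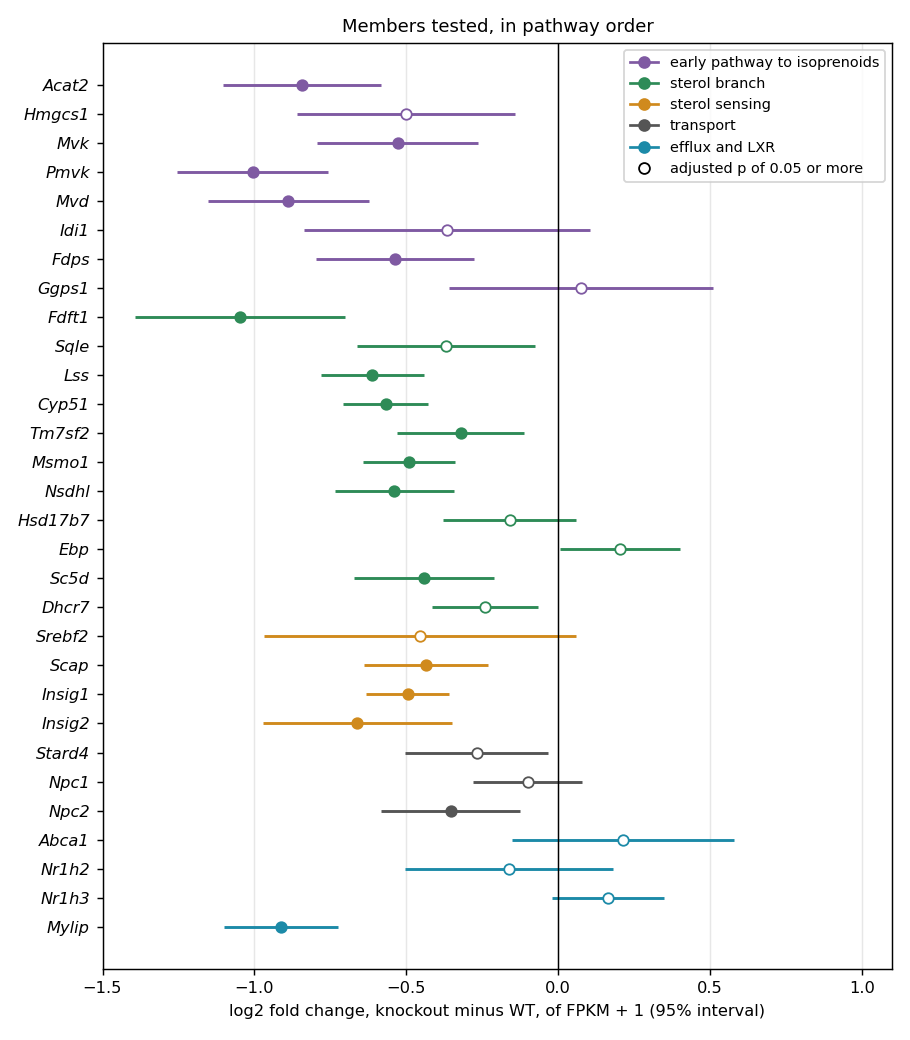
Log2 fold change (knockout minus WT, of FPKM + 1) of the 30 tested genes in pathway order from top to bottom, with 95% intervals from limma as bars; colours mark the role and open circles an adjusted p of 0.05 or more. Filled circles all lie left of 0, from -1.05 for Fdft1 to -0.32 for Tm7sf2.

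Promoter sequences are shown here for the 5 genes with the smallest adjusted p among those that fell and had a sequence to show, together with Hmgcs1, the one gene of the set whose window holds a sterol regulatory element as searched. They are the 140 bases before the transcription start in RefSeq (build GRCm38.p6), written 5′ to 3′ on the strand of the gene. Capitals mark matches on either strand to CCAAT (the box bound by NF-Y, a known partner of SREBPs; it reads ATTGG on the other strand), to the E-box CACGTG, or to the sterol element TCACNCCAC. No printed base lies in more than 1 of these matches.
Mylip (chr13:45389602-45389741, plus strand): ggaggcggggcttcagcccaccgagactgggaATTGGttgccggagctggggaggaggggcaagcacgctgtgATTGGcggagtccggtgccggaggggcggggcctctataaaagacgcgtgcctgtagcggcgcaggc
Cyp51 (chr5:4104698-4104837, minus strand): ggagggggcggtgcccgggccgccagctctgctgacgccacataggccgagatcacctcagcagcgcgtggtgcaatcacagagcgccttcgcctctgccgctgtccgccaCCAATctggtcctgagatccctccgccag
Pmvk (chr3:89454401-89454540, plus strand): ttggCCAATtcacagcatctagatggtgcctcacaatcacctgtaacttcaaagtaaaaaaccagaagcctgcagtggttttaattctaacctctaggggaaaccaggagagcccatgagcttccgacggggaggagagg
Insig1 (chr5:28071272-28071411, plus strand): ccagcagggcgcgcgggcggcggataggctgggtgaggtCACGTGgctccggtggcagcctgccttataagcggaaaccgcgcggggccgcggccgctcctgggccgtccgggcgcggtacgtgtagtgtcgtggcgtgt
Lss (chr10:76531465-76531604, plus strand): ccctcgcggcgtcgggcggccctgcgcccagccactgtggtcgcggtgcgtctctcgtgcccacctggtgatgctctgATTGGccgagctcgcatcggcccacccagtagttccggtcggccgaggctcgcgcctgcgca
Hmgcs1 (chr13:119690211-119690350, plus strand): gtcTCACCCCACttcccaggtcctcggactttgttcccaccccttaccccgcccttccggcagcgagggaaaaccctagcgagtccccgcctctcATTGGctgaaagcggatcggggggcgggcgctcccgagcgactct

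RefSeq windows of 300 bases (250 before to 50 after the start) were at hand for 25 of the 31 genes, 16 of them synthesis enzymes. Abcg1, Fdps, Fdft1, Sqle, Stard4 and Npc1 had no window and were not searched. CCAAT was found on either strand in the windows of 15 of these 16 enzymes, against 41.1% of the 27025 gene symbols with a window. In 14 enzymes a match lay within 100 bases before the start, a stretch for which no share over all symbols was taken. Anywhere in the window, CCAAT was held by 13 of 15 genes that fell and by 7 of 10 that were not called lower, a difference that was not tested. The E-box CACGTG was found in 6 of the 25, against 8.09% of all symbols. It was held by 3 of 15 genes that fell (Insig1, Sc5d and Scap). It was also held by 3 of 10 that were not called lower (Abca1, Dhcr7 and Hsd17b7). TCACNCCAC was found in Hmgcs1 alone, against 1.44% of all symbols. A longer form of the sterol element and the direct repeat bound by LXR, also searched on both strands, were in none of the 25, against 0.1% and 0.015% of all symbols. These are letter matches in short windows, and a missing match says only that these letters are not there.

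Enzymes that turn acetyl-CoA into isoprenoid units came first, and 5 of the 8 fell. Pmvk, phosphomevalonate kinase (ENSMUSG00000027952, chr3:89454541-89469013, plus strand, GRCm38), stood at 7.69, 5.96 and 7.76 FPKM in the knockout libraries and at 15.4, 14.8 and 15.5 FPKM in the WT libraries, in replicate order here and below (log2 fold change -1.01 ± 0.10, adjusted p = 0.000885, limma). Mvd, which decarboxylates mevalonate diphosphate in the next step, stood at 12.9, 10.9 and 13.6 FPKM in knockout and 25.4, 21.1 and 25.3 FPKM in WT libraries (-0.89 ± 0.11, adjusted p = 0.00195). Both genes were close to 50% of the WT level, at 46.8% and 52.1%, with no overlap between the groups. Acat2, the cytosolic thiolase that opens the pathway, stood at 20.1, 18.1 and 14.9 FPKM in knockout and 33.4, 32.1 and 31.6 FPKM in WT libraries (-0.84 ± 0.11, adjusted p = 0.00224). Its neighbour on chromosome 17, Acat3, is by name a close relative with which it may share reads. Acat3 stood at 3.62 to 4.45 FPKM in knockout and 5.30 to 5.92 FPKM in WT libraries. Shared reads were not measured, so the resulting uncertainty of the Acat2 values is not known.

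Mvk, mevalonate kinase, and Fdps, farnesyl diphosphate synthase, fell by less. Mvk stood at 9.93, 7.97 and 10.9 FPKM in knockout and 13.8, 14.2 and 14.6 FPKM in WT libraries (-0.53 ± 0.11, adjusted p = 0.0174). Fdps stood at 25.7, 21.8 and 26.9 FPKM in knockout and 35.7, 33.0 and 40.6 FPKM in WT libraries (-0.54 ± 0.11, adjusted p = 0.0157). The groups did not overlap for either gene, yet Mvk did not pass with any 1 WT library left out (adjusted p = 0.0558, 0.0582 and 0.0664 without WT replicate 1, 2 and 3), nor Fdps without WT replicate 1 or 3 (0.0545 and 0.0527). Fdps shares 7512 bases on its strand with the annotated gene Gm43738, which reached 1.2 FPKM.

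Hmgcs1, Idi1 and Ggps1 did not pass. Hmgcs1, the HMG-CoA synthase whose promoter is shown above, stood at 25.1, 24.2 and 16.9 FPKM in knockout and 30.05, 30.3 and 33.4 FPKM in WT libraries (-0.50 ± 0.15, 95% interval -0.86 to -0.14, adjusted p = 0.0639). The groups did not overlap, but knockout replicate 3 was far below the other two knockout libraries, and without it the gene passed (-0.33, adjusted p = 0.0253), as it did in edgeR (0.0444) and DESeq2 (0.0109). Idi1, the isopentenyl diphosphate isomerase, shared that pattern, with 10.3, 11.6 and 6.41 FPKM in knockout and 11.3, 13.1 and 12.03 FPKM in WT libraries (-0.36 ± 0.20, 95% interval -0.84 to 0.11, adjusted p = 0.269). Its groups overlapped, and its difference came to -0.14 (adjusted p = 0.324) without knockout replicate 3. Ggps1 makes the geranylgeranyl unit used for protein prenylation and so leads away from sterols. It stood at 4.99, 6.23 and 4.19 FPKM in knockout and 6.26, 4.33 and 3.97 FPKM in WT libraries, fully overlapping (0.07 ± 0.18, 95% interval -0.36 to 0.51, adjusted p = 0.823).

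**Figure D2:**
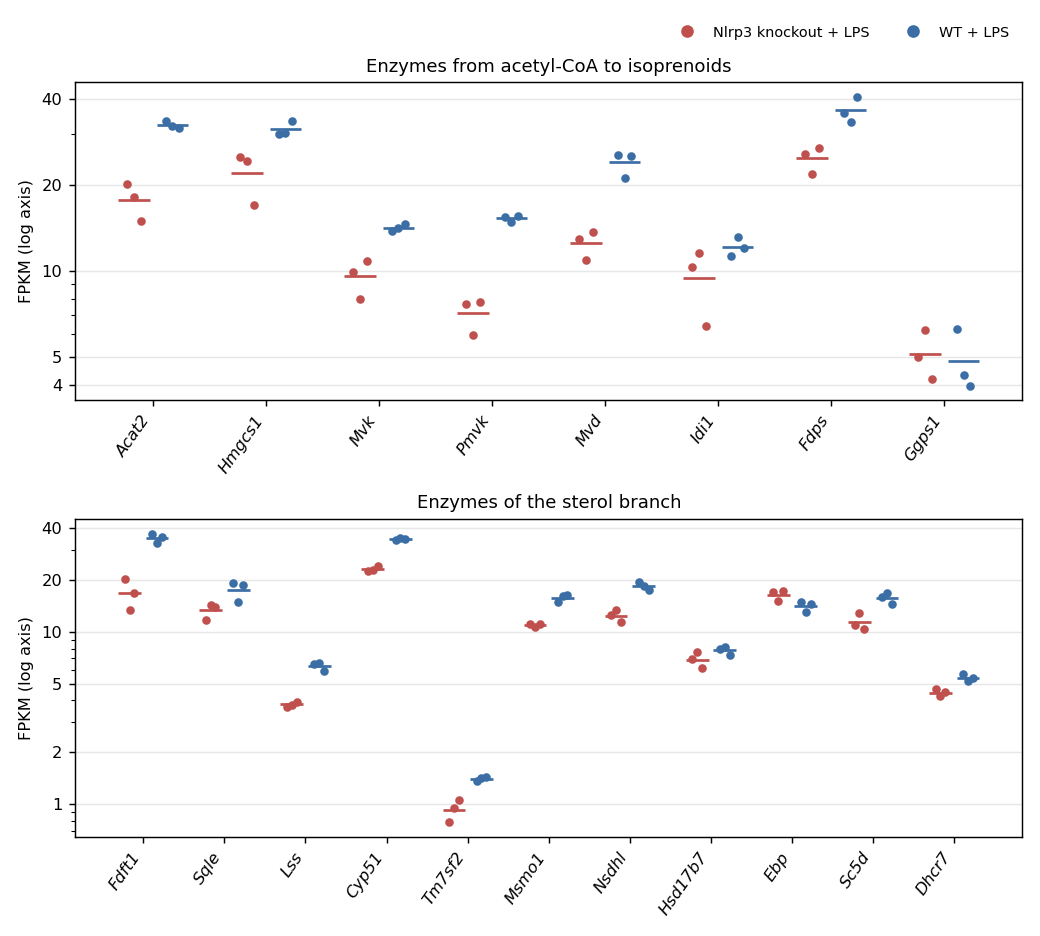
FPKM on a log axis of the 8 early enzymes (top) and the 11 enzymes of the sterol branch (bottom), 1 point per library and the mean of 3 as a bar, knockout left and WT right of each pair. Pmvk, Mvd and Fdft1 show the widest gaps; Ggps1 overlaps and Ebp lies the other way, with knockout libraries at 15.1 to 17.2 FPKM and WT libraries at 13.0 to 14.8 FPKM.

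From squalene onward, 7 of 11 enzymes fell. Fdft1, squalene synthase, which commits farnesyl diphosphate to sterols (ENSMUSG00000021273, chr14:63145150-63179578, minus strand), stood at 20.2, 13.4 and 16.8 FPKM in knockout and 37.2, 33.0 and 35.7 FPKM in WT libraries (-1.05 ± 0.14, adjusted p = 0.00297). At 47.5% of the WT level it lay beside Pmvk. It overlaps Ctsb on the opposite strand by 774 bases, and Ctsb reached 144 FPKM in these libraries, so that reads of the overlap could have been assigned to either if counting ignored the strand, which is not given in the sources used here.

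Ring closure and the first demethylations were lower with little spread. Lss, lanosterol synthase, stood at 3.68, 3.77 and 3.93 FPKM in knockout and 6.46, 6.56 and 5.96 FPKM in WT libraries (-0.61 ± 0.07, adjusted p = 0.00145). Cyp51, the lanosterol demethylase, stood at 22.5, 22.8 and 24.0 FPKM in knockout and 34.3, 35.2 and 34.7 FPKM in WT libraries (-0.57 ± 0.06, adjusted p = 0.00086). The gap between the groups was many times the spread within either. Msmo1, the C4 methylsterol oxidase, stood at 11.1, 10.7 and 11.1 FPKM in knockout and 15.0, 16.1 and 16.3 FPKM in WT libraries (-0.49 ± 0.06, adjusted p = 0.00224). Nsdhl, the decarboxylating dehydrogenase that acts with it, stood at 12.5, 13.4 and 11.4 FPKM in knockout and 19.5, 18.5 and 17.4 FPKM in WT libraries (-0.54 ± 0.08, adjusted p = 0.00461). These 4 genes lay between 59.95% and 69.3% of the WT level, without overlap, and each passed in all 15 alternative analyses.

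The remaining called enzymes were less secure. Sc5d, the sterol C5 desaturase, stood at 10.9, 12.8 and 10.4 FPKM in knockout and 15.9, 16.8 and 14.6 FPKM in WT libraries (-0.44 ± 0.10, adjusted p = 0.0209). It did not pass without knockout replicate 1 (0.0779) or without WT replicate 1 or 2 (0.0781 and 0.0763). Tm7sf2, a sterol C14 reductase, was the lowest of the enzymes, with 0.78, 0.95 and 1.05 FPKM in knockout and 1.35, 1.42 and 1.44 FPKM in WT libraries (-0.32 ± 0.09, adjusted p = 0.0455). It reached the filter in all 3 WT libraries and in 1 knockout library, and its call was lost in 11 alternatives, among them the fit with the title day as a replicate block (adjusted p = 0.0776), with adjusted p up to 0.139.

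The other 4 enzymes of the branch did not pass. Sqle, the squalene epoxidase and a rate-limiting step, stood at 11.7, 14.4 and 13.99 FPKM in knockout and 19.2, 14.9 and 18.7 FPKM in WT libraries (-0.37 ± 0.12, 95% interval -0.66 to -0.08, adjusted p = 0.0864). WT replicate 2 lay next to the knockout values, and without it the gene passed (-0.48, adjusted p = 0.039). Dhcr7, which catalyses the last reduction to cholesterol, stood at 4.63, 4.21 and 4.46 FPKM in knockout and 5.72, 5.16 and 5.39 FPKM in WT libraries, without overlap (-0.24 ± 0.07, 95% interval -0.42 to -0.06, adjusted p = 0.0675). Hsd17b7, the 3-ketosteroid reductase, stood at 6.92, 7.61 and 6.15 FPKM in knockout and 7.98, 8.12 and 7.31 FPKM in WT libraries, with overlap (-0.16 ± 0.09, adjusted p = 0.291; -0.09 without knockout replicate 3). Ebp, the sterol isomerase, was the exception in direction, at 17.03, 15.1 and 17.2 FPKM in knockout and 14.8, 13.0 and 14.5 FPKM in WT libraries (0.20 ± 0.08, 95% interval 0.006 to 0.40, adjusted p = 0.149). All its knockout values lay above all its WT values, as they did for 18.8% of genes tested.

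Summed over the 19 enzymes, FPKM came to 239, 226 and 222 in the knockout libraries and 349, 332 and 349 in the WT libraries. The knockout mean was 66.7% of the WT mean, and the groups were far apart. The mean log2(FPKM + 1) of the 11 sterol-branch enzymes was 3.30 in each knockout library, and 3.75, 3.69 and 3.70 in the WT libraries. That of the 8 early enzymes was 3.79, 3.68 and 3.60 in knockout and 4.30, 4.21 and 4.28 in WT libraries. Knockout replicate 3 had the lowest early mean but did not differ in the sterol branch. The median coefficient of variation over the 31 genes was 11.2% among knockout and 5.68% among WT libraries, with the widest spread among knockout libraries in Idi1 (28.6%), Srebf2 (27.4%) and Abca1 (25.2%).

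Of the 4 sterol sensing genes, 3 fell. Insig1, which retains SCAP in the endoplasmic reticulum and is itself a target of SREBP2, stood at 20.7, 20.96 and 19.7 FPKM in knockout and 29.6, 29.3 and 29.0 FPKM in WT libraries (-0.50 ± 0.06, adjusted p = 0.00142). Insig2, its relative that is not driven by SREBP2 in the same way, stood at 10.7, 8.94 and 7.53 FPKM in knockout and 16.3, 13.5 and 14.5 FPKM in WT libraries (-0.66 ± 0.13, adjusted p = 0.0139). Scap, the sterol-sensing escort, stood at 8.10, 8.04 and 9.32 FPKM in knockout and 11.1, 11.6 and 12.7 FPKM in WT libraries (-0.43 ± 0.09, adjusted p = 0.0135). The groups did not overlap for these 3 genes, so that the escort and both of its retention factors were lower together. Insig2 did not pass without WT replicate 1 (0.0557), nor Scap without knockout replicate 1 (0.0565) or WT replicate 3 (0.0541).

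Srebf2, which encodes SREBP2, was the noisiest of them. It stood at 13.9, 23.2 and 16.2 FPKM in knockout and 30.6, 21.6 and 21.2 FPKM in WT libraries, and knockout replicate 2 lay above 2 WT libraries. It did not pass (-0.45 ± 0.21, 95% interval -0.97 to 0.06, adjusted p = 0.21), and its difference was -0.29 without WT replicate 1. SREBP2 is controlled by cleavage, which these RNA levels do not measure.

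Of the 3 sterol transport genes, 1 fell. Npc2, which hands cholesterol to NPC1 inside the lysosome, was the most abundant gene of the set, at 120.2, 104 and 129 FPKM in knockout and 152, 144 and 155 FPKM in WT libraries (-0.35 ± 0.10, adjusted p = 0.0451). Its groups did not overlap, but the call was lost in 8 alternatives, with adjusted p up to 0.14. Its partner Npc1, the lysosomal exporter, stood at 5.12, 5.78 and 5.29 FPKM in knockout and 5.72, 6.14 and 5.71 FPKM in WT libraries, with overlap (-0.10 ± 0.07, 95% interval -0.28 to 0.08, adjusted p = 0.414). Stard4, a cytosolic sterol carrier and SREBP2 target, stood at 5.78, 6.28 and 4.89 FPKM in knockout and 7.41, 6.63 and 6.93 FPKM in WT libraries, without overlap (-0.27 ± 0.10, 95% interval -0.50 to -0.03, adjusted p = 0.115).

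**Figure D3:**
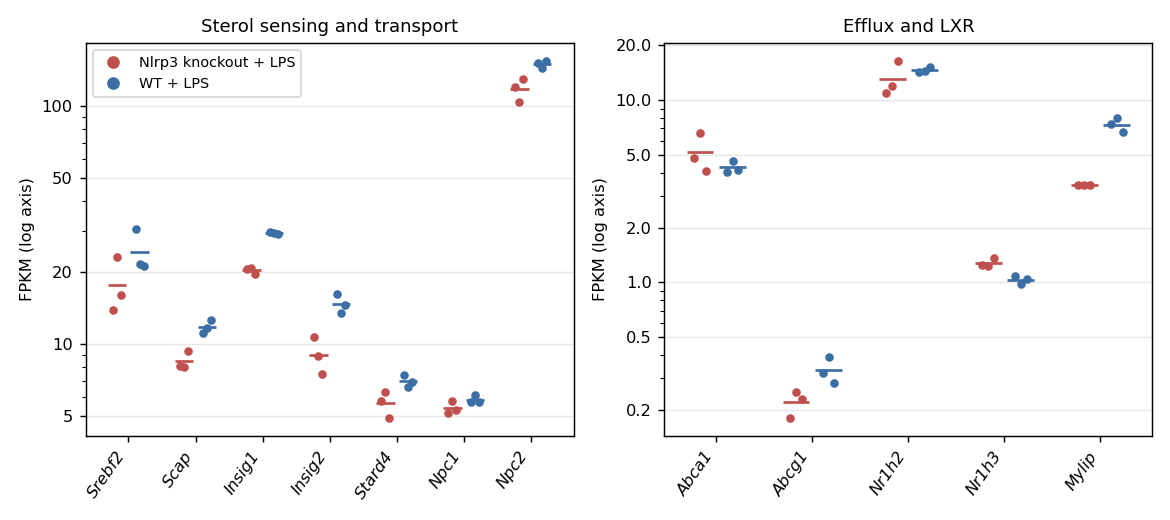
FPKM on log axes of the sterol sensing and transport genes (left) and of the efflux and LXR genes (right), 1 point per library and the mean of 3 as a bar, knockout left and WT right of each pair. The Mylip libraries form separate groups, at 3.42 to 3.44 FPKM in knockout and 6.72 to 7.94 FPKM in WT, whereas Abca1 and Nr1h2 overlap.

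The efflux and LXR genes split. Mylip, the LXR-induced ligase that removes lipoprotein receptors from the surface (ENSMUSG00000038175, chr13:45389742-45412022, plus strand), stood at 3.44, 3.43 and 3.42 FPKM in knockout and 7.40, 7.94 and 6.72 FPKM in WT libraries (-0.91 ± 0.08, adjusted p = 0.000421). At 46.65% of the WT level it had the smallest adjusted p of the set, and it passed in all 15 alternatives. Abca1, the pump that loads cholesterol onto apolipoproteins, stood at 4.85, 6.65 and 4.11 FPKM in knockout and 4.05, 4.62 and 4.16 FPKM in WT libraries, with overlap (0.21 ± 0.15, 95% interval -0.15 to 0.58, adjusted p = 0.397). Abcg1, the pump that serves larger lipoproteins, was scarce in both groups and below the filter, at 0.18, 0.25 and 0.23 FPKM in knockout and 0.32, 0.39 and 0.28 FPKM in WT libraries, from 95 to 208 estimated counts. Its knockout values all lay below its WT values, but edgeR on the estimated counts did not call it (-0.59 on its log2 scale, adjusted p = 0.144). Neither pump passed, and the difference of Abca1 came to 0.05 without knockout replicate 2 and 0.34 without knockout replicate 3.

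The receptors themselves were not called. Nr1h3, which encodes LXRα, stood at 1.25, 1.23 and 1.36 FPKM in knockout and 1.08, 0.98 and 1.05 FPKM in WT libraries, without overlap (0.16 ± 0.08, 95% interval -0.02 to 0.35, adjusted p = 0.209). LXRα is known from macrophages; the share of their higher markers in this difference was not tested. Nr1h2, which encodes the widely expressed LXRβ, stood at 11, 11.96 and 16.5 FPKM in knockout and 14.3, 14.4 and 15.3 FPKM in WT libraries, with knockout replicate 3 above every WT library (-0.16 ± 0.14, 95% interval -0.51 to 0.18, adjusted p = 0.497). Without that library Nr1h2 was called lower (-0.33, adjusted p = 0.0241).

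Set against each other, the synthesis mean fell further than the efflux mean of Abca1, Abcg1 and Mylip, but both were lower. The mean log2(FPKM + 1) of the 19 enzymes was 3.46 ± 0.04 in knockout and 3.95 ± 0.03 in WT libraries (SD, n = 3 each), a difference of -0.48. That of Abca1, Abcg1 and Mylip was 1.68 ± 0.11 in knockout and 1.96 ± 0.08 in WT libraries, a difference of -0.27. Mylip (-0.91), a ligase and not a pump, had the largest part in that difference. Abca1 went the other way (0.21) without a call, and Abcg1 was scarce. The lower efflux mean therefore does not show that the pumps fell. The synthesis mean minus the efflux mean was 1.86, 1.66 and 1.82 in knockout and 2.04, 1.87 and 2.06 in WT libraries. The values of the groups did not overlap, but knockout replicate 1 and WT replicate 2 were almost equal. The difference of -0.21 came to -0.11 with a pseudocount of 0.1, since Abcg1 then weighs more, and it lay between -0.27 and -0.15 with 1 library left out. No test was made of these means, since the genes were chosen as a set.

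**Figure D4:**
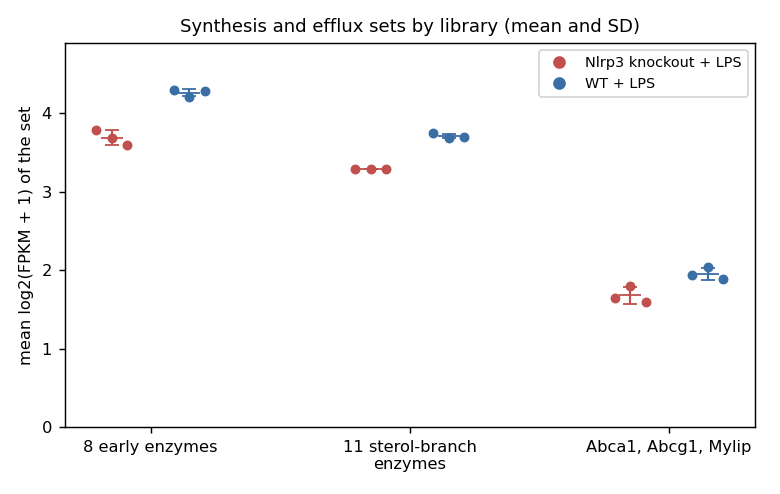
Mean log2(FPKM + 1) of the 8 early enzymes, the 11 sterol-branch enzymes and the 3 LXR-driven genes, 1 point per library with mean and SD of 3, knockout left and WT right. The knockout libraries lie below the WT libraries in all 3 sets, by 0.57, 0.42 and 0.27 in the order shown. In the last set Mylip has the largest part (-0.91), and Abca1 goes the other way (0.21).

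A wider list of 67 sterol genes outside the set had no common direction. Of 60 tested, 8 fell (13.3%) and 10 rose (16.7%), against 9.20% and 10.4% of all genes tested, with a median log2 fold change of -0.03 and 31 of the 60 below 0. The 7 tested genes of other sterol synthesis were all below 0, but 1 was called lower. This was Erg28, named after its values were seen (-0.27 ± 0.07, adjusted p = 0.0446). Its call was lost in 12 of 15 alternatives, edgeR (0.0535) and DESeq2 (0.0537) among them, with adjusted p up to 0.156. Among 9 genes listed under SREBP processing and control, Srebf1 itself included, 2 fell (Srebf1 and Mbtps1) and 2 rose (Ubxn2a and Erlin2). These were named after their values were seen except Srebf1, and all but Srebf1 lost the call in 4 to 8 alternatives. Whether Ubxn2a acts on SREBPs was not checked. Srebf1, the SREBP of fatty acid synthesis, which is itself induced by LXR, stood at 9.88, 9.68 and 11.4 FPKM in knockout and 15.3, 16.2 and 15.6 FPKM in WT libraries (-0.56 ± 0.08, adjusted p = 0.00298). It was thus lower in all 3 knockout libraries, together with Insig1, Insig2 and Scap.

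Known LXR targets on the wider list also split. Lpcat3, a phospholipid-remodelling acyltransferase, stood at 13.7, 12.2 and 14.01 FPKM in knockout and 19.5, 19.3 and 19.2 FPKM in WT libraries (-0.51 ± 0.07, adjusted p = 0.00324). Arl4c, a small GTPase, stood at 15.5, 15.9 and 17.02 FPKM in knockout and 7.46, 7.34 and 7.98 FPKM in WT libraries (0.996 ± 0.07, adjusted p = 0.000169). Smpdl3a (0.90, adjusted p = 0.000725) and Pltp (0.62, adjusted p = 0.00502), both named after their values were seen, rose as well. Abca7, an ABCA1 relative, is not counted here among the LXR targets. It averaged 2.84 ± 0.39 FPKM in knockout and 4.92 ± 0.49 FPKM in WT libraries and fell (-0.63, adjusted p = 0.00751). Mylip, Lpcat3 and Srebf1 thus stood lower and Arl4c, Smpdl3a and Pltp higher in the same libraries.

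Oxysterol, esterification and uptake genes completed the list. Ch25h, which makes 25-hydroxycholesterol, a ligand of INSIG and of LXR, stood at 23.9, 20.4 and 27.0 FPKM in knockout and 44.6, 43.9 and 44.7 FPKM in WT libraries (-0.88 ± 0.10, adjusted p = 0.00151). Cyp7b1, which hydroxylates oxysterols for removal, averaged 8.76 ± 0.54 FPKM in knockout and 13.7 ± 1.53 FPKM in WT libraries (-0.58, adjusted p = 0.00671). The gene that makes this oxysterol and a gene that clears it were thus both lower. Soat1, which esterifies cholesterol for storage, averaged 9.84 ± 0.26 FPKM in knockout and 8.20 ± 0.32 FPKM in WT libraries (0.24, adjusted p = 0.0459), a call lost in 12 of 15 alternatives, edgeR (0.0597) and DESeq2 (0.0726) among them. Of 10 uptake and lysosome genes tested, 2 rose and 1 fell, against 10.4% and 9.20% of all genes tested, and 6 lay below 0. The scavenger receptors Msr1 (1.17 ± 0.13, adjusted p = 0.00129) and Cd36 (0.92 ± 0.15, adjusted p = 0.00652) rose. Lipa, named after its values were seen, fell (-0.283 ± 0.065, adjusted p = 0.0258). Msr1 averaged 14.4 FPKM in knockout and 5.78 FPKM in WT libraries and is itself one of the macrophage markers above, and Cd36 averaged 5.30 FPKM in knockout and 2.30 FPKM in WT libraries.

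The pathway labels in the table gave a second count, in which many genes are members of the set and are counted again. The KEGG maps of steroid and terpenoid backbone biosynthesis hold 41 genes of the table, of which 35 were tested, 15 fell and 3 rose. Without the members of the set, 16 were tested, of which 3 fell and 3 rose, with a median log2 fold change of 0.01. Over all genes tested, 9.20% were called lower and 10.4% higher.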

How the data were processed

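The deposited table holds FPKM values and estimated counts per gene for 6 libraries, 3 per genotype, named by group and by the day number in the sample titles; another label gives day 1 for all. The submitters' processing notes name build GRCm38 and, without roles, StringTie 1.3.4d, HISAT2 2.0.4 and cutadapt 1.9; the sources used here give no counting method, strand setting or annotation. The deposited estimated counts are whole numbers, but 44.4% of those up to 16 are multiples of 4, against 25% if all were as frequent, and over 5837 genes (from 5 FPKM and 300 counts upward) their ratio to the deposited FPKM was within 1% of 1 factor per library. A fragment thus appears to give 4 counts, an inference from the values. FPKM were therefore the main values.

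Differences in log2(FPKM + 1) were tested two-sided in R 4.3.3 by limma 3.58.1 (trend, Benjamini-Hochberg), over genes reaching 1 FPKM in 3 libraries or more. Alternatives were edgeR 4.0.16 (quasi-likelihood) and DESeq2 1.42.0 on the estimated counts, another pseudocount, other filters, TMM and quantile scaling, a replicate block and each library left out. The code was tested on simulated data. For Nlrp3 alone an exact permutation test was added. Promoter windows are from RefSeq (GRCm38.p6). Every member was named; of the wider list, the 3 highest and 3 lowest called genes and Srebf1, Soat1, Lpcat3 and Ch25h were named by rule, and others after their values were seen, as stated there. The members and lists were chosen with earlier results of these data known. Of the 31 members, 6 overlap another annotated gene that reached an FPKM of 1, and reads of such overlaps, or of gene relatives, cannot be assigned with certainty.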

Additional observations from a re-analysis of the deposited data

How the results depend on the processing

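Of the 17 genes called lower, 10 (Acat2, Pmvk, Mvd, Fdft1, Lss, Cyp51, Msmo1, Nsdhl, Insig1 and Mylip) were called lower in all 15 alternatives, and 7 lost the call in at least 1. The number called lower was 11 to 19 with 1 library left out, lowest without WT replicate 1, and 8 to 13 among the 19 enzymes; 0 were called higher in any alternative, against 1 at an unadjusted p under 0.05 in limma. All 17 were also called by edgeR (18 in all) and by DESeq2 (19 in all). Both took the estimated counts of the same libraries unscaled, at about 4 counts per fragment, so their agreement with limma is not independent. Over the whole table, genes called lower numbered 1685 in DESeq2 and 721 to 1314 with 1 library left out, and genes called higher 817 with a filter of FPKM of at least 5, which tests fewer genes (26 of the set), and 868 to 1685 with 1 library left out. With a pseudocount of 0.1 the synthesis mean differed by -0.53 and the efflux mean by -0.42; with 1 library left out they differed by -0.50 to -0.46 and by -0.33 to -0.23. Ggps1 changed sign without knockout replicate 2 (-0.05) and without WT replicate 3 (-0.03), and ranged from -0.05 to 0.24 with 1 library left out. Beyond construction, the causes were not tested. With the title day as a replicate block, 16 of the 30 genes tested were called lower; of the 17, Tm7sf2 alone lost its call (adjusted p = 0.0776). Whether same-numbered libraries share a day is unclear, since another label gives day 1 for all; deviations from the group means correlated at 0.02, 0.168 and 0.096 for equal numbers and at -0.171 to 0.081 for unequal ones. No scaling moved the median of all genes by 0.1. Depth limits Abcg1 most, with 95 to 208 estimated counts.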
